A study of Mus musculus with 72 samples.

Results

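The integrated stress response is the shared reaction of cells to amino acid shortage, misfolded protein in the endoplasmic reticulum, haem shortage and viral RNA. Kinases phosphorylate the initiation factor eIF2α, general translation slows, and the mRNA of the transcription factor ATF4 is translated more. ATF4 then raises genes for amino acid synthesis, for transport and tRNA charging, for the redox balance and for the end of the response itself. In liver, feeding and fasting shift the amino acid supply and the load of secreted protein every day, so that these genes were of interest over a daily cycle.

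Of 16593 genes measured, 10 genes of this response were followed, chosen by name with all their probes, which gave 14 of 25697 probes. They are the transcription factors Atf4, Ddit3 (CHOP) and Atf3, the enzymes of amino acid synthesis Asns, Psat1 and Phgdh, the glutathione-degrading enzyme Chac1, and the signalling regulators Trib3, Ddit4 and Sesn2. All 10 genes were found, with 3 probes for Asns, 2 each for Ddit3 and Sesn2 and 1 for each of the others, and no probe was filtered out. Livers came from male Scp2 KO mice, in which the whole locus of the lipid carrier SCP2 and of SCPx is deleted and which were backcrossed into C57Bl/6, and from C57Bl/6J mice as controls (WT). Animals were 10 to 12 weeks old, lived under 12 h of light and 12 h of dark (ZT0, lights on) and were fed only at night for 4 days. Each of 12 times, 2 h apart, had 3 livers per genotype, 72 arrays in all, and whether livers shared a litter or a day of harvest is not given for single arrays. The deletion is not restricted to the liver. Both strains came from a commercial supplier, and whether KO mice and controls were littermates is not given.

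Expression is given as log2 of the normalized probe signal, for which the median over all probes and arrays was 6.005. Median raw signals lay from 96.1 to 114 in WT and from 95.5 to 114 in KO. Of 4 Scp2 probes, 3 followed the genotype, with means of 12.23, 12.92 and 11.75 in WT against 5.89, 5.998 and 10.29 in KO, and the other was dim in both. Of 6 hepatocyte markers, Apoa1, Ttr, Serpina1c and Cps1 were among the brightest probes, whereas the probes of Alb and Tat were dim. The summed signal of the 6 lay from 15.52 to 15.83 in WT and from 15.41 to 15.78 in KO (log2). The columns of signals fall into 3 sets of 12 arrays per genotype by their names (WT sets 6, 9 and 10, and KO sets 4, 5 and 6), and what a set stands for is not given. The study's results speak of collection over 3 days in a row and its methods of a single period of 24 h. No source used here ties a set to a day. Over the brightest 25% of probes, 2 arrays of WT set 6 stood apart, that of ZT12 with a median rank correlation of 0.892 with the other arrays and that of ZT20 with 0.928, where the next lowest was 0.936. In the ZT12 array the summed signal of 5 of 6 neutrophil markers was 12.26, against 8.17 to 8.52 in the other 34 WT arrays, with sums of 11.25 for Kupffer cells (9.19 to 10.66), 12.03 for sinusoidal endothelium (11.20 to 11.68), 11.99 for stellate cells (11.31 to 11.61) and 8.43 for lymphocytes (8.25 to 8.40), and a lower one of 15.52 for hepatocytes (15.55 to 15.83). Over all probes they did not stand apart: their values were 0.844 and 0.861, and 3 and 15 other arrays were lower, down to 0.827. Leaving out the ZT20 array was chosen after its values were seen. For Asns and Chac1 the main differences and spans are given with and without both, but correlations between probes, profiles or genes only with both. In bulk liver RNA, fewer cells of a type and less RNA per cell cannot be told apart.

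ATF4 binds with C/EBP proteins to a composite element, and its core was looked for as TGATGNAA on both strands from 250 bases before to 50 after the start site (RefSeq, GRCm38.p6). It was in 1304 of 32851 such windows (3.97%) and in 4 of the 11 windows of the 10 genes (Psat1 has 2), those of Atf3, Asns, Trib3 and Chac1. These 4 are shown because they hold the core in genes whose levels behaved differently below, each 5′ to 3′ on the strand of the gene with the match in capitals. The match begins at -110 in Atf3, -23 in Asns and -193 in Chac1 and at 15 after the start in Trib3, and in all but Asns it is the reverse complement that is read. The windows of Atf4, Ddit3, Ddit4, Psat1, Phgdh and Sesn2 hold no such letters. The E-box of the clock proteins, CACGTG, which reads the same on both strands, was in none of the 11 windows and in 7.15% of all.
Atf3 (chr1:191183284-191183583, minus strand): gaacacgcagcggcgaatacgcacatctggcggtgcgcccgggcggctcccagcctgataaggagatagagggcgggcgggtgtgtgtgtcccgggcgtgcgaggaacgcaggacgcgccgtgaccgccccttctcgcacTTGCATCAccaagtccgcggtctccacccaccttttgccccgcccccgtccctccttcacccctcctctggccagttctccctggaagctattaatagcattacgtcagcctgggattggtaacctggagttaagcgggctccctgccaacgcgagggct
Asns (chr6:7693160-7693459, minus strand): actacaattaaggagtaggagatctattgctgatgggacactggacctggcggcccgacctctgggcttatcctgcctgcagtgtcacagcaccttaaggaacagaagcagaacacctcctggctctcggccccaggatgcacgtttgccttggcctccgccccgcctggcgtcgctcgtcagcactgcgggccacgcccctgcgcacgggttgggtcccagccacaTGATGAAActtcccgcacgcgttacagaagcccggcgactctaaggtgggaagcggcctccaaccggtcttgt
Trib3 (chr2:152344011-152344310, minus strand): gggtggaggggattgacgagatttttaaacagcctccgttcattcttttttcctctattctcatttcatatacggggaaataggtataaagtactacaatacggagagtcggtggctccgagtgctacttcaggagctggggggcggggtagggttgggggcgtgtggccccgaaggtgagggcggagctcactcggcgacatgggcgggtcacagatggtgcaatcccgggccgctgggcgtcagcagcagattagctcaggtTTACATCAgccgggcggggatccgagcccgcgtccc
Chac1 (chr2:119350992-119351291, plus strand): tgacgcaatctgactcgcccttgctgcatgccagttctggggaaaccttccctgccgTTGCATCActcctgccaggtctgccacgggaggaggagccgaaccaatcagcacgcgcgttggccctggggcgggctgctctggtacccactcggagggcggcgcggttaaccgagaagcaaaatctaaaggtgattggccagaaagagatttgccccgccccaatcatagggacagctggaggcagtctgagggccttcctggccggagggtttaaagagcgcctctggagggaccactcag

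Asns, asparagine synthetase, makes asparagine from aspartate and glutamine and is a classical ATF4 target. It was the only one of the 10 genes whose mean over all times passed the test of genotype. Its brightest probe (ILMN_2643513) read 5.94 at the lowest, 6.31 at the median and 8.24 at the highest of 36 WT livers, and 6.18, 6.79 and 7.83 of 36 KO livers. The ranges overlapped, but 34 of 36 KO livers lay above the WT median and 31 of 36 WT livers below the KO median. WT livers averaged 6.42 ± 0.47 and KO livers 6.86 ± 0.38 (SD, n = 36 per genotype), a difference of 0.44 on the log2 scale (SE 0.098, 95% interval 0.24 to 0.63), with a limma adjusted p of 6.14e-04. In the lowest WT liver (set 6, ZT8) the raw signal was 101, close to the median of 103 of its array, so that no fold is given. The second probe (ILMN_3006123) rose less, from 6.09 ± 0.22 to 6.25 ± 0.17 (difference 0.16, SE 0.046, limma adjusted p = 0.0116). The third (ILMN_2636755) was among the dimmest of the array, at percentile 4.37 of all probes, and differed by 0.03 (limma adjusted p = 0.33). Both brighter probes moved together from liver to liver, with a Pearson r of 0.93 over the 72 deviations from group means, values that share the array and its normalization.

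Of the 14 probes, 2 were thus higher in KO and 0 lower, where 5.13% of all probes were higher, 5.39% lower and 10.5% either. None of the 14 was lower at an unadjusted p under 0.05 either, where 9.87% of all probes were. Among the sets, the medians of the brightest Asns probe were 6.16, 6.36 and 6.28 in WT sets 6, 9 and 10 and 6.69, 6.76 and 6.96 in KO sets 4, 5 and 6. The median of each KO set therefore lay above that of each WT set. With set as a random block the adjusted p was 7.59e-04 (limma). No set holds both genotypes, so that an effect of the sets and one of genotype cannot be told apart, with or without the block. For ILMN_3006123 the call was lost without KO set 6 (adjusted p = 0.095), without WT set 9 (0.069) and without WT set 10 (0.12), with limma in each case, and the difference stayed between 0.14 and 0.15.

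**Figure D1:**
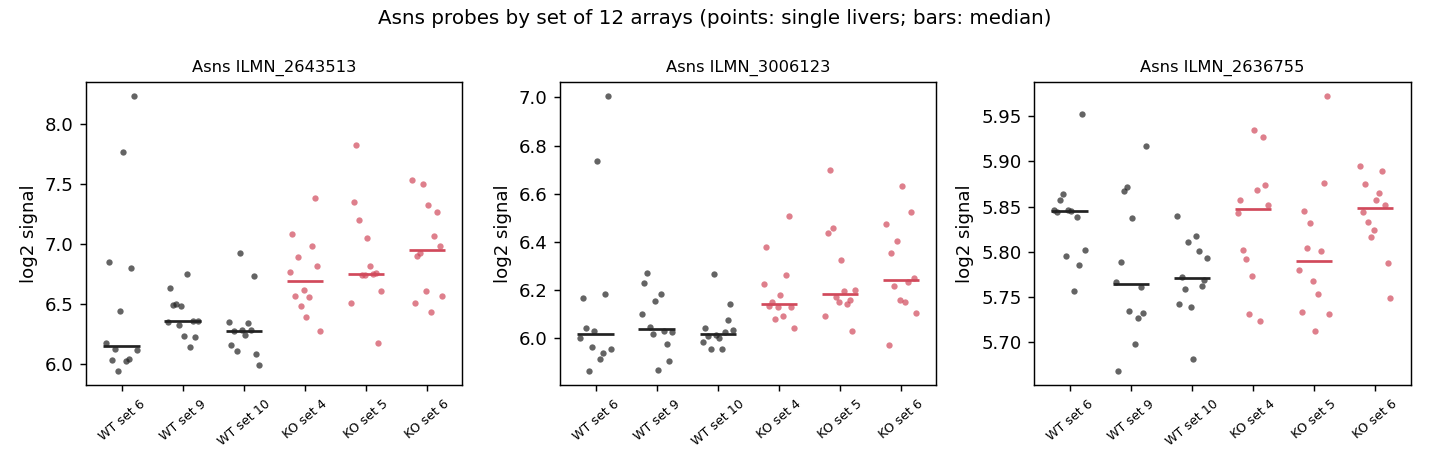
Log2 signal (vertical axis) of the 3 Asns probes in single livers, by set of 12 arrays (horizontal axis), with WT in black, KO in red and bars at set medians. For ILMN_2643513 each KO median (6.69 to 6.96) lies above each WT median (6.16 to 6.36), and both highest WT points belong to set 6.

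The highest Asns values of WT were those of the 2 arrays that stood apart, 8.24 at ZT20 and 7.77 at ZT12, and the next WT liver was at 6.93. Without both, the WT mean was 6.33 ± 0.26 (n = 34), the difference 0.53 with an adjusted p of 8.49e-08 for ILMN_2643513 and 0.21 with 2.83e-06 for ILMN_3006123 (limma). Without the ZT12 array alone, they were 0.48 with 5.36e-05 and 0.18 with 1.64e-03. Neutrophil markers were high at ZT12 only: in the ZT20 array their sum was 8.42, within the range of the others. Among cell type markers, those of sinusoidal endothelium moved with genotype too. Of 6, Oit3 (-0.22) and Clec4g (-0.19) fell, and their summed signal had a median of 11.46 in WT (11.20 to 12.03) and of 11.29 in KO (11.02 to 11.50). Of the hepatocyte markers Cps1 (-0.29) and Alb (-0.07) fell, and of the stellate cell markers Reln (-0.09). Their part in the Asns result was not tested.

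Over the day, the KO mean of both brighter Asns probes was above WT at 11 of 12 times. Over all probes KO was higher at 11 or 12 times for 5.07% and at all 12 for 2.61%. The exception was ZT20, where the WT livers of ILMN_2643513 read 6.09, 6.23 and 8.24 and the KO livers 6.18, 6.82 and 6.98. Without the 2 WT arrays the difference at that time was 0.51 in place of -0.19. The difference was largest at ZT4 (0.83), a time picked for that reason. There WT read 6.04, 6.28 and 6.49 and KO 6.57, 6.91 and 7.83, without overlap. No single time passed the test for Asns (lowest adjusted p 0.49 for this probe), and neither genotype had a 24 h rhythm (adjusted p 0.91 in WT and 0.88 in KO). With both WT arrays included, the profile of means over the 12 times in WT had an r of 0.06 with that in KO. The highest WT mean was then at ZT20 (6.85). Without both arrays it was at ZT18 (6.63), where KO was highest too (7.14), and r is not given for that case. The 3 genes whose 24 group means were most like those of Asns were Cnnm2 (r = 0.82), Treh (0.80) and Gstk1 (0.79). These means come from both genotypes, so that r reflects the genotype difference as well as the time of day.

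**Figure D2:**
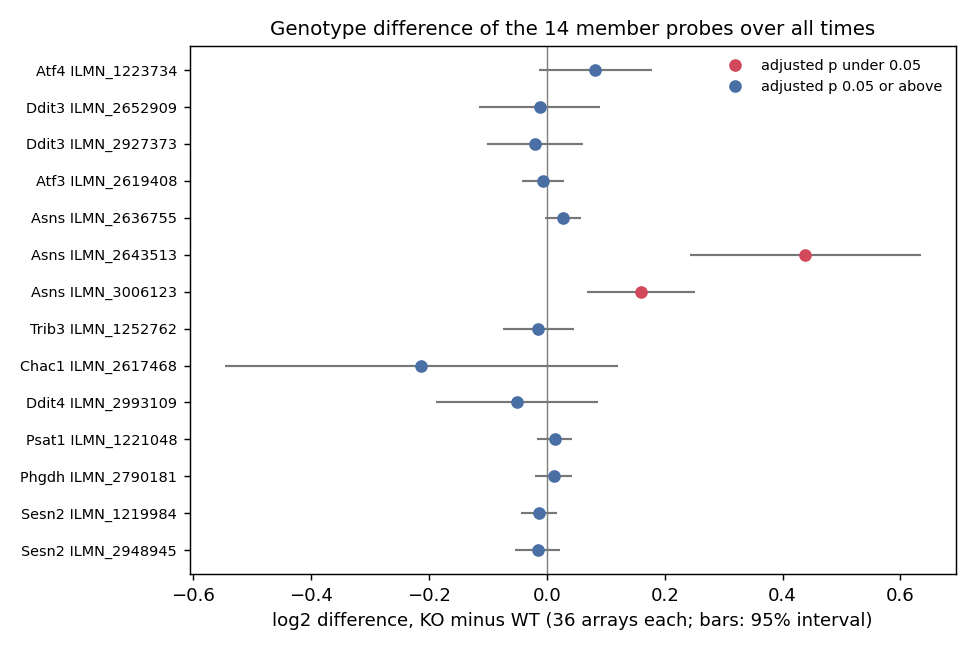
Difference KO minus WT on the log2 scale (horizontal axis) of the 14 probes, each from 36 livers per genotype, with 95% intervals. Both brighter Asns probes (0.44 and 0.16, red) passed the test, and the intervals of the other 12 include 0.

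Atf4, the transcription factor at the head of the response, had a probe at percentile 89.1 of the array. It read 7.54, 7.86 and 8.33 (lowest, median, highest) in WT and 7.51, 7.98 and 8.45 in KO. The difference of 0.08 (95% interval -0.01 to 0.18) did not pass (limma adjusted p = 0.38). Its level followed the day in both genotypes, with a fitted 24 h amplitude of 0.19 for WT (SE 0.033) and of 0.20 for KO (SE 0.040). The fitted maximum fell at ZT21.0 and ZT22.4, and the F-test gave adjusted p-values of 2.36e-04 and 1.71e-03 (harmonic regression, Benjamini-Hochberg). At ZT0, the highest mean in both, WT read 8.18, 8.18 and 8.30 and KO 8.12, 8.24 and 8.30. In KO the mean of ZT16 (8.215) was nearly level with that of ZT0 (8.218), whereas WT was at 7.86 at ZT16. At the lowest, WT livers of ZT10 read 7.64, 7.66 and 7.68, and KO livers of ZT12 7.51, 7.53 and 7.72. The lowest and highest groups did not overlap in either genotype. They were picked by their means, so that this describes the values and is not a test. The call in KO was lost without KO set 4 (F-test adjusted p = 0.080) or KO set 5 (0.058). The mRNA level says nothing of the translation of ATF4, which is the regulated step.

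Between genotypes, Atf4 was most apart at ZT16, with 7.77, 7.89 and 7.92 in WT and 7.99, 8.20 and 8.45 in KO. These groups did not overlap, but the difference of 0.35 (SE 0.10) had a limma adjusted p of 0.099, at a time when 0.739% of all probes passed. It passed without KO set 5 (0.47, adjusted p = 0.047). The interaction of genotype and time had an unadjusted p of 0.027 for Atf4 and did not pass after adjustment (limma), and 0.0156% of all probes passed it.

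Chac1, which breaks down glutathione and is a target of ATF4 and CHOP, had the widest span of means among the 14 probes. The highest means were at ZT12, lights off, when WT livers read 8.06, 8.66 and 9.44 and KO livers 7.55, 7.67 and 8.09. By ZT14 they read 6.13, 6.51 and 6.61 in WT and 6.01, 6.07 and 6.19 in KO. ZT12, picked as the highest mean, and ZT14 did not overlap in either genotype. On the normalized log2 scale the means spanned 2.58 in WT (ZT12 to ZT16), or 2.22 without both arrays that stood apart, and 1.68 in KO (ZT12 to ZT14). At the lowest groups the raw signals, 102 to 128 in WT and 105 to 108 in KO, were close to the median signal of an array, so that no fold is given. The 24 h fit had an amplitude of 0.58 (SE 0.17) with a maximum at ZT8.60 in WT and of 0.62 (SE 0.11) at ZT8.14 in KO, with F-test adjusted p-values of 0.045 and 3.89e-04. These fitted maxima lay ahead of the highest means at ZT12, which were followed by a steep fall.

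With time as a factor of 12 levels, a test added after the data had been seen, Chac1 varied in both genotypes (adjusted p = 6.25e-04 in WT, or 4.72e-03 without both arrays, and 5.28e-06 in KO, limma F-test). The mean of KO was below that of WT at 10 of 12 times, and the difference over all times was -0.21 (95% interval -0.55 to 0.12, limma adjusted p = 0.59). At ZT12 it was -0.95 (SE 0.33, limma adjusted p = 0.16, with 1.46% of all probes past the test). The highest WT value there, 9.44, is that of the array with the high neutrophil sum. Without both arrays that stood apart the difference was -0.59 (adjusted p = 0.63), and without WT set 9 it was -1.28 and passed (adjusted p = 0.028, limma). Rhythm in WT was not called without WT set 6 (F-test adjusted p = 0.21) or WT set 9 (0.51), where 2 arrays per time remained, but was without both arrays that stood apart (0.040). In KO it was not called without KO set 6 (0.059). The group means most like those of Chac1 were of Chic2 (r = 0.86), Klf9 (0.86) and Junb (0.85).

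**Figure D3:**
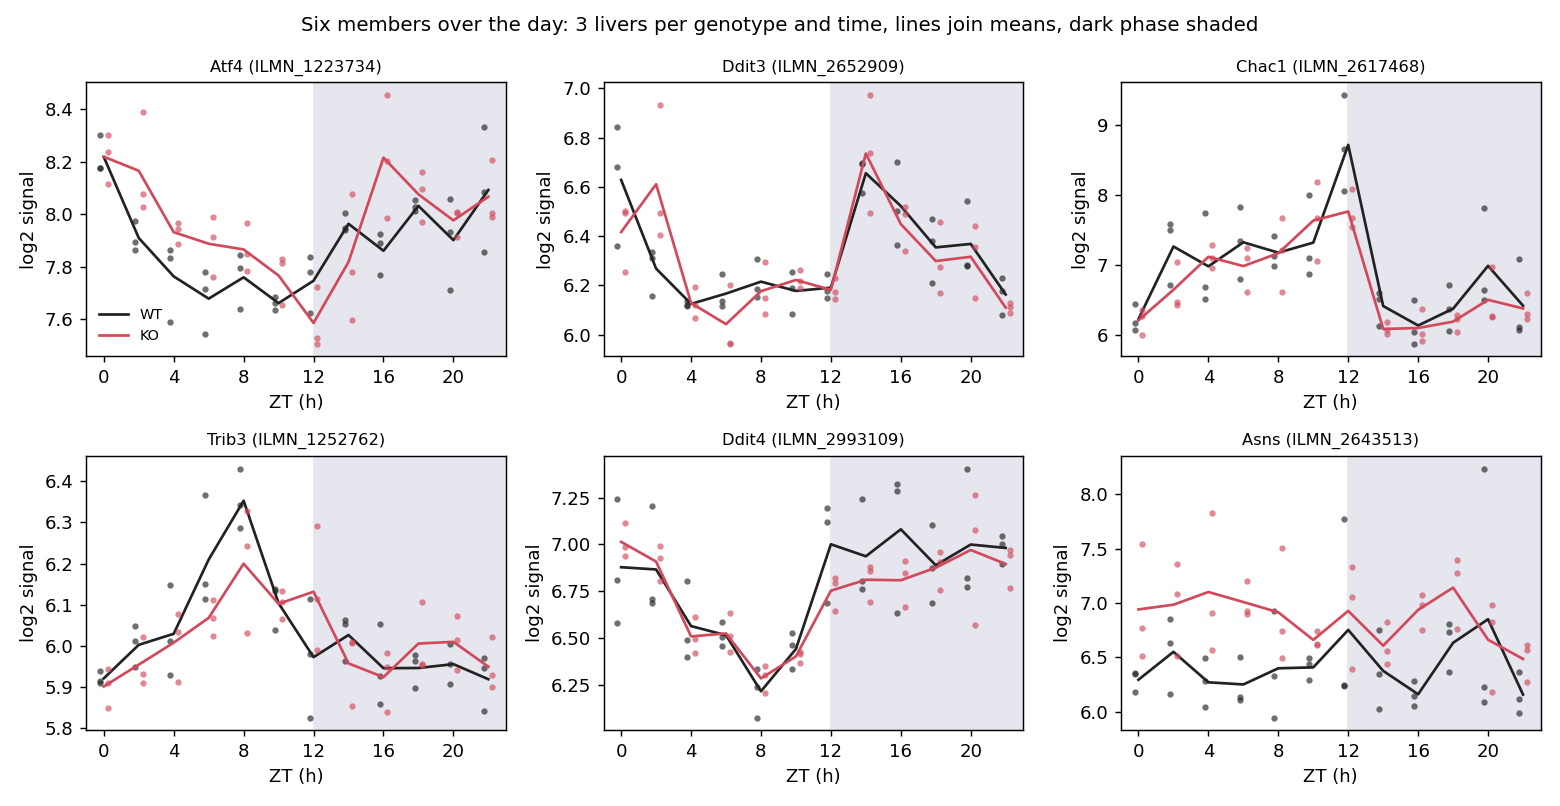
Log2 signal (vertical axis) of 6 probes against ZT in h (horizontal axis), with points for single livers (WT black, KO red), lines through the means of 3 and the dark phase shaded. Chac1 falls between ZT12 and ZT14, where Ddit3 is highest, Trib3 is highest and Ddit4 lowest at ZT8, and Asns lies higher in KO at 11 of 12 times.

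Ddit3, which encodes CHOP, a factor that ATF4 induces in prolonged stress, had 2 maxima per day. On its brighter probe (ILMN_2652909) WT livers read 6.15, 6.18 and 6.25 at ZT12 and 6.57, 6.69 and 6.70 at ZT14. KO livers read 6.14, 6.17 and 6.23 at ZT12 and 6.49, 6.74 and 6.97 at ZT14. All livers of ZT14, picked as the highest mean, thus lay above those of ZT12 in both genotypes, the reverse of Chac1. The other maximum was at ZT0 in WT (6.36, 6.68 and 6.84) and at ZT2 in KO (6.40, 6.49 and 6.93). At ZT2 the WT livers (6.16, 6.31 and 6.34) lay below those of KO, a difference of 0.34 with a limma adjusted p of 0.16.

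Time as a factor was past the test for this probe in both genotypes (adjusted p = 2.33e-04 in WT and 3.48e-04 in KO, limma F-test) and for ILMN_2927373 in WT (0.014) but not in KO (0.068). A 24 h rhythm was not called (F-test adjusted p = 0.072 and 0.45). The 12 h component of ILMN_2652909 had amplitudes of 0.11 for WT (SE 0.041) and 0.18 for KO (SE 0.045), with F-test adjusted p-values of 0.54 and 0.11, and unadjusted ones of 0.046 and 1.27e-03. No member probe passed for a 12 h component, against 0.755% of all probes in WT and 0.389% in KO, and 4 of 14 in WT and 6 of 14 in KO had an unadjusted p under 0.05, where 9.02% and 8.7% of all probes did. Both Ddit3 probes had nearly 1 profile (r = 0.97 over 24 group means of the same arrays). Over all times the genotypes differed by -0.01 and -0.02 (limma adjusted p = 0.95 and 0.88). Dnajb1 (r = 0.91), H2ax (0.89) and Ccdc134 (0.86) were the most alike.

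Trib3, a pseudokinase that ATF4 and CHOP raise and that dampens both ATF4 and AKT signalling, was near the median of the array and most abundant at ZT8. There WT livers read 6.29, 6.34 and 6.43 and KO livers 6.03, 6.24 and 6.33, and at ZT0 5.91, 5.91 and 5.94 in WT and 5.85, 5.91 and 5.94 in KO. Fitted amplitudes were 0.14 for WT (SE 0.025) and 0.09 for KO (SE 0.022), with maxima at ZT7.81 and ZT9.21 (F-test adjusted p = 3.03e-04 and 0.012). The call in KO was lost without KO set 4 (0.057), KO set 5 (0.23) or KO set 6 (0.070). Over all times the genotypes differed by -0.01 (95% interval -0.08 to 0.05).

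Ddit4 (REDD1), an inhibitor of mTORC1 that ATF4 and glucocorticoids induce, ran opposite to Trib3. It was lowest at ZT8, with 6.08, 6.24 and 6.33 in WT and 6.21, 6.30 and 6.35 in KO. Its highest mean was at ZT16 in WT (6.63, 7.29 and 7.32) and at ZT0 in KO (6.94, 6.99 and 7.12), neither of which overlapped with ZT8. These times too were picked by their means. The amplitude was 0.31 (SE 0.062) and 0.28 (SE 0.039), with maxima at ZT18.9 and ZT20.3 and F-test adjusted p-values of 1.50e-03 and 9.02e-06. Over the 24 group means its r with Trib3 was -0.83. Profiles closest to that of Ddit4 were those of Skil (r = 0.94), Ppp1r3b (0.88) and Hexim1 (0.82).

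Counted by probe, 4 of 14 had a 24 h rhythm in WT (13.4% of all probes), 4 in KO (11.4%) and the same 4 in both (7.65%), namely Atf4, Trib3, Chac1 and Ddit4. The fitted maxima of Chac1 and Trib3 lay in the light phase, while food was withheld, and those of Atf4 and Ddit4 in the later part of the dark phase. Highest means were at ZT12 for Chac1, ZT8 for Trib3 and ZT0 for Atf4 in both genotypes, and at ZT16 (WT) and ZT0 (KO) for Ddit4. For Atf4 in KO, ZT16 was nearly level with ZT0. Over 24 group means Atf4 had an r of -0.71 with Chac1 and of -0.67 with Trib3, points that share arrays and the time of day. In KO the fitted maxima of Atf4, Trib3 and Ddit4 came later by 1.32 h (SE 1.01), 1.41 h (SE 1.14) and 1.43 h (SE 0.93), and that of Chac1 earlier by 0.46 h (SE 1.29). Time as a factor passed for 6 of the 14 probes in WT (7.74% of all) and for 5 in KO (9.09%), those of these 4 genes and of Ddit3. No rhythm difference passed (adjusted p = 0.91, 0.79, 0.87 and 0.99 for Atf4, Trib3, Ddit4 and Chac1, limma), with 0.109% of all probes past that test, and none of the 14 probes had an unadjusted p under 0.05, where 8.09% of all did.

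**Figure D4:**
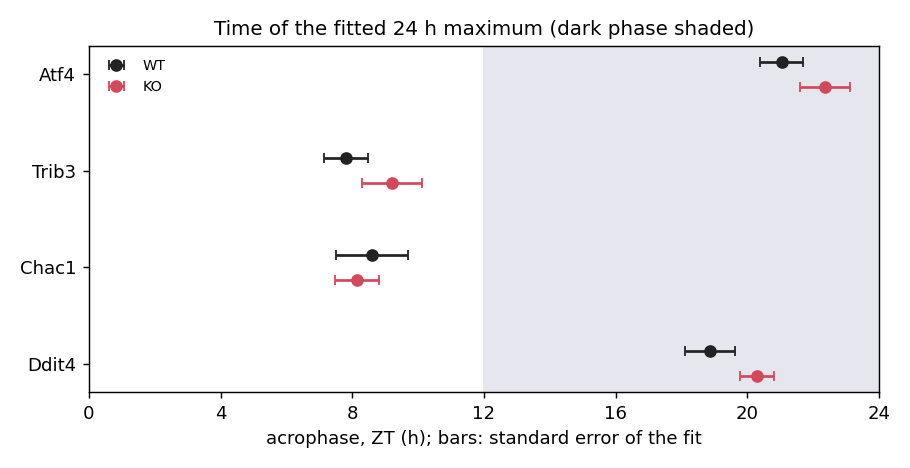
Time of the fitted 24 h maximum in h of ZT (horizontal axis) with its standard error, for the 4 genes rhythmic in both genotypes, WT in black and KO in red, dark phase shaded. Trib3 and Chac1 lie between ZT7.81 and ZT9.21, Ddit4 and Atf4 between ZT18.9 and ZT22.4, and the genotypes differ by at most 1.43 h.

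For the remaining genes no test was passed, and their probes lay between percentiles 21.6 and 55.1 of the array. Psat1 and Phgdh, which with Psph form serine from a glycolytic intermediate, read 5.87, 5.99 and 6.19 and 5.87, 6.01 and 6.13 (lowest, median, highest) in WT and 5.84, 5.99 and 6.12 and 5.89, 6.01 and 6.20 in KO. Atf3, a stress-induced repressor of the ATF family, read 5.79, 5.95 and 6.13 in WT and 5.82, 5.95 and 6.21 in KO. Of Sesn2, which restrains mTORC1 when leucine is short, both probes stayed between 5.73 and 6.20 in WT and between 5.73 and 6.15 in KO. Sesn2 lies on chromosome 4 as Scp2 does, 263 measured genes away, and no other of the 10 genes does. Differences between genotypes ranged from -0.02 to 0.01 in these 5 probes, with 95% intervals that reached from -0.05 to 0.04, and no rhythm was called (F-test adjusted p from 0.26 to 0.84).

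By time, none of the 168 pairs of probe and time passed the genotype test, where 3.48% of all probes passed at 1 time or more. The share of all probes past the test was 0.685% at ZT0, 0.669% at ZT2, 0.662% at ZT4, 0.549% at ZT6, 0.755% at ZT8, 0.483% at ZT10, 1.46% at ZT12, 0.615% at ZT14, 0.739% at ZT16, 0.735% at ZT18, 0.794% at ZT20 and 0.444% at ZT22. At an unadjusted p under 0.05 there were 16 of the 168 pairs, and 8.04% of the pairs of all probes (limma). Interaction of genotype and time passed for 0 of 14 probes, and 1 of them, Atf4, had an unadjusted p under 0.05, as did 4.13% of all probes.

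**Figure D5:**
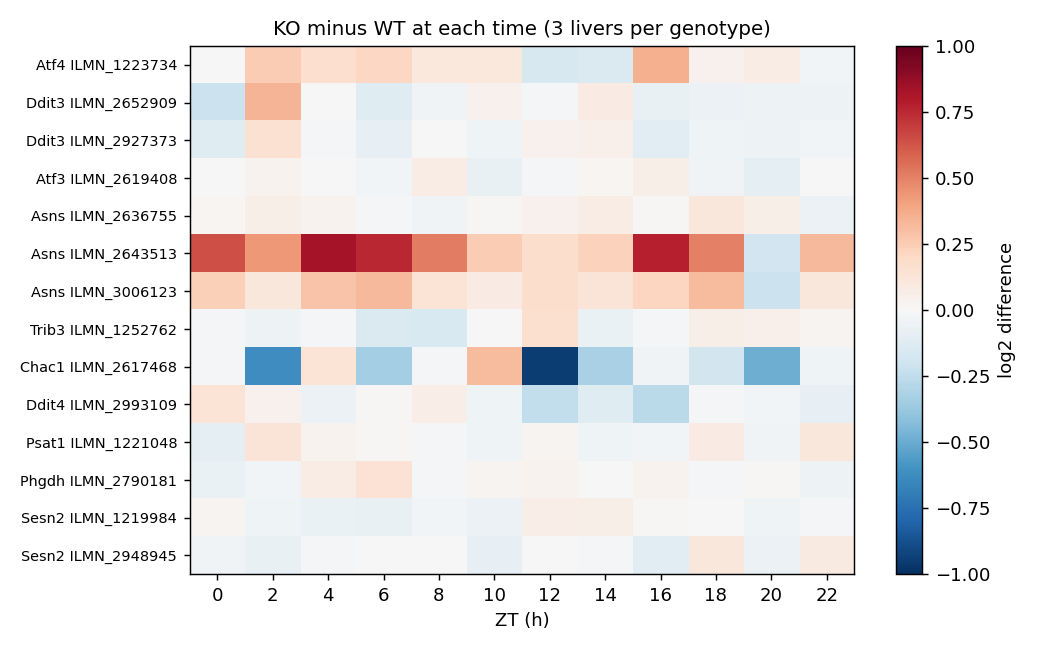
Difference KO minus WT on the log2 scale (colour) of each probe (rows) at each ZT in h (columns), from 3 livers per genotype and time. Red runs through the row of Asns ILMN_2643513 except at ZT20, and the deepest blue is Chac1 at ZT12 (-0.95), and no cell passed the test.

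Around these genes, the rest of the pathway was read from fixed lists with 1 probe per gene, the brightest. Over all 16593 genes read so, 5.73% rose and 6.2% fell in KO, and 20.8% had an unadjusted p under 0.05 (limma). A 24 h rhythm was called for 15.2% of them in WT and 13.2% in KO, and a 12 h component for 0.91% and 0.494%. Of 7 measured eIF2α kinases and phosphatase subunits, which start and end the response, 0 changed with genotype, and 0 had an unadjusted p under 0.05 (limma). Their median difference was -0.03, against -0.00027 over all genes. In WT 3 were rhythmic and in KO 3, among them Ppp1r15b, which directs the phosphatase to eIF2α, with maxima at ZT17.7 and ZT18.9. Of 11 other factors and secreted outputs of the response, 1 rose and 2 fell. Fgf21, a fasting and stress hormone of the liver, rose by 0.10 (limma adjusted p = 1.62e-03), and Nupr1, a stress-induced chromatin protein (-0.11, 3.28e-03), and Vldlr, a lipoprotein receptor (-0.24, 2.97e-08), fell. Atf5, a close relative of Atf4, had a strong rhythm in both genotypes (amplitude 0.63 and 0.58, maxima at ZT2.14 and ZT2.58) and no genotype difference past the test (-0.04, limma adjusted p = 0.93).

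Of 10 genes for serine, one-carbon and amino acid synthesis, 2 rose and 1 fell. Cth, which cleaves cystathionine to cysteine, rose by 0.30 (limma adjusted p = 9.19e-03), and Gpt2, an alanine aminotransferase, by 0.22 (0.038). Cbs, the step before Cth, fell (-0.27, 0.020). Of 10 amino acid transporters 1 fell, Slc38a2 (-0.27, limma adjusted p = 0.014), a carrier of small neutral amino acids. Of 12 aminoacyl-tRNA synthetases Lars rose by 0.15 (1.25e-05) and Nars fell (-0.10, 0.011). Rhythm was called for 4 of 10, 4 of 10 and 3 of 12 of these lists in WT and for 4, 4 and 4 in KO.

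Of 12 chaperones and other genes of the ATF6 and XBP1 branches in the endoplasmic reticulum, 0 changed with genotype over all times, and 3 had an unadjusted p under 0.05 (limma). A 12 h component passed for 3 in WT, Creld2 (amplitude 0.91, adjusted p = 2.49e-04), Dnajb9 (0.53, 7.54e-03) and Hyou1 (0.16, 0.047), and for 1 in KO, Creld2 (0.72, 0.034), by F-test. In KO the amplitude was 0.47 for Dnajb9 (F-test adjusted p = 0.12) and 0.08 for Hyou1 (0.72). A difference of the 12 h component between genotypes was not tested. Of other lists, 1 of 12 immediate early genes fell (Klf6, -0.17, limma adjusted p = 2.19e-03), as did 1 of 8 glucocorticoid-responsive genes (Sgk1, -0.24, 3.67e-03). Of 7 p53 targets, Mdm2 rose by 0.24 (3.26e-05) and Ccng1 by 0.14 (1.66e-03).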

How the data were processed

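RNA of 72 livers was hybridized to Illumina mouse BeadChip arrays. The authors deposited the average signal of each probe as an intensity without normalization, background subtraction or detection p-values, so that whether a dim probe was above background cannot be said. The number of arrays limits the precision. They also deposited a table of log2 values whose columns equal quantile-normalized log2 signals without background correction. Partek is named in the submitters' processing notes, with its version and settings not given in the sources used here. Columns of signals name a genotype, a time and a set but no replicate number.

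Signals were corrected with normexp (offset 50), quantile normalized and taken as log2 with limma 3.58.1 in R 4.3.3. Tests covered all 25697 probes with Benjamini-Hochberg adjustment and a threshold of 0.05. Of these, 23978 have 1 gene symbol and 1719 several or none. Genotypes were compared with limma over all times, at each time (24 groups) and by an interaction F-test. Rhythms were tested per genotype by ordinary regression on a cosine and a sine of 24 h, and of 12 h on top, and their difference with limma. Amplitude is the distance from the fitted mean to the maximum. Tests of the genotype difference over all times and at ZT0, of the 24 h rhythm and the 12 h component in WT and of the rhythm difference were tried on simulated data. The interaction test and time as a factor were not among them. Alternatives were the authors' log2 values, with and without the replicate number as a block, no background correction, median scaling, a filter on the dimmest 25%, 1 probe per gene, leaving out arrays or sets, time as a factor, set as a random block, means of 3 arrays, other adjustments and tests. Named were all probes of the 10 genes, from each list at most 4 genes past the threshold, taken by size of the genotype difference, Scp2, and, for the 4 member genes of widest range, the 3 genes with the most similar group means. Atf5, Ppp1r15b and the chaperones with a 12 h component were named after their values were seen. The members and lists were chosen with earlier results of these data known. Figures were drawn with matplotlib 3.10.9. Some items are not reported here.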

Additional observations from a re-analysis of the deposited data

How the results depend on the processing

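Across 22 alternatives no called value changed direction, and of 218 single genotype differences 4 changed sign, none of them past the test in the analysis reported. The difference of Asns ILMN_2643513 passed in 16 of 16 alternatives (0.31 to 0.53 on the log2 scale, adjusted p from 8.49e-08 to 0.0192, limma) and that of ILMN_3006123 in 12 of 15 (0.10 to 0.21, adjusted p up to 0.12). With 1 probe per gene, 1 member probe was higher in KO, since only 1 Asns probe was then tested. Leaving out each set in turn gave 1 to 2 higher probes, 0 to 1 pairs of probe and time past the test, and 2 to 4 rhythmic probes in KO. With the mean of the 3 arrays at each time, 0 probes were rhythmic in WT and 1 in KO (Ddit4), where 12 values replaced 36. The rhythm of Chac1 in WT was called in 12 of 18 alternatives, those of Atf4 in 16 (WT) and 15 (KO), of Trib3 in 17 and 14, of Chac1 in KO in 16 and of Ddit4 in 17 and 18. It was also lost for Chac1 in WT with the authors' values and without background correction (F-test adjusted p = 0.060 for both), and for Atf4 in WT with median scaling (0.067).

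Replicate numbers of the labels pair samples only by number. Deviations of same-numbered WT and KO samples at a time correlated at 0.126 on average (36 pairs, -0.108 to 0.344, of which 23 over 0.1), and of others at -0.063 (72 pairs). Deviations of 3 samples from their mean sum to 0, so that the value for others largely follows from the first and is no separate comparison. With the replicate block, on the authors' values, whose column names alone carry the number, 2 probes were higher and 0 lower in KO (Asns 0.31 and 0.10, adjusted p = 1.56e-03 and 0.020, limma), 0 pairs of probe and time, 0 interactions, 0 rhythm differences and 0 of the 12 h components passed, and 3 probes were rhythmic in WT and 4 in KO. With no detection p-values here, whether the probes of Atf3, Trib3, Psat1, Phgdh and Sesn2 were above background cannot be said. The same holds for both dimmer Asns probes, for Ddit3 ILMN_2927373 and for the probes of Fgf21, Nupr1 and Vldlr.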
